A study of Trichoderma reesei with 18 samples.

Results

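Of the 10879 rows of the count table, 7 genes stayed within a set limit on the light difference in every strain. These 7 yet stood at least 2-fold apart from the wild type in the deletion mutant Δ21168 under both conditions. Of these, 3 were higher in Δ21168 (TrA2099W, TrA0121C and TrE1202W) and 4 were lower (TrE0746W, TrG0089W, TrB1794C and TrA0790W). They were chosen from group means of CPM (the reads of a gene scaled to a common library total, as counts per 1000000). A row needed a mean of at least 5 CPM in 1 of the 6 groups, a light difference under 0.5 on the log2 scale in each strain, and a difference between Δ21168 and QM6a of at least 1 (log2) in the same direction in darkness and in light. It also needed a difference between Δ80186 and QM6a of under 1 in darkness or in light. All differences were taken as log2(CPM + 1), which understates the change of weakly expressed genes. Since these values chose the members, the differences from QM6a and between light conditions are given as a description.

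The mycelium was of Trichoderma reesei, a filamentous ascomycete known for secreting cellulases, grown in minimal medium on cellulose at 28 °C for 96 h. The groups were the wild type QM6a in constant darkness and in constant light, and 2 single-gene deletion mutants of it under the same conditions. Δ80186 lacks TR80186, the MAP kinase kinase of the HOG cascade, and Δ21168 lacks TR21168, that of the pheromone cascade, as the series title puts them. Each of the 6 groups held 3 libraries. Nothing in the labels says that these came from separate cultures or how many transformants a mutant stands for, so the spread may be technical.

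MAP kinase cascades pass a signal from a kinase at the top through a MAP kinase kinase to a MAP kinase, which acts on transcription factors and other targets. In baker's yeast, Saccharomyces cerevisiae, the pheromone cascade turns on mating genes when a partner's pheromone is sensed, and the HOG cascade responds to high osmolarity. In filamentous fungi related cascades take part in cell fusion, fertile development and stress responses, and light is a major cue for gene expression in T. reesei.

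Library totals were 7945697 to 12415791 reads in the 6 libraries of Δ21168 and 11249966 to 15672321 in the 12 others. The Δ21168 libraries carry library numbers from another series than the 12 others. A library batch and the Δ21168 deletion therefore cannot be told apart in any comparison of Δ21168 with QM6a or Δ80186, and no value within a batch could be had. The dark libraries of Δ21168 spread most, with rank correlations of 0.979 to 0.989 within the group, against 0.990 to 0.996 within the other groups. The lower values were those of dark replicate 1. A difference in RNA per cell or in the kinds of cells cannot be told apart in these bulk samples.

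The identifiers are a letter from A to G, a number and the ending W or C. None of the 7 members was found in the RefSeq gene table of this species (0 matched), and the files do not pair identifiers with names, so no role could be given for any member. Their sequences and lengths were not analysed here, and levels are compared only within a gene.

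TrE0746W was the member with the greatest distance from the wild type. In QM6a it stood at 89.9, 88.2 and 89.8 CPM in darkness and at 125, 109 and 117 CPM in light. In Δ80186 it stood at 78.4, 86.7 and 79.0 CPM in darkness and at 85.9, 91.9 and 82.8 CPM in light. In Δ21168 all 6 libraries held 0 reads. The loss was complete at this depth and alike in both conditions, while Δ80186 kept most of the wild-type level. TrE0746W, with 3 reads over the group taken as the limit of detection, was at least 895-fold lower than QM6a in darkness and at least 1123-fold lower in light. That limit covers counting error only. The files do not tell which identifier is the deleted gene, and a row singled out by its loss of reads is no independent check of the strain label.

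TrG0089W was lower in all 6 Δ21168 libraries than in any of the 12 others. QM6a libraries held 28.6, 25.3 and 23.3 CPM in darkness and 33.2, 30.6 and 26.9 CPM in light. Those of Δ80186 held 22.1, 25.1 and 20 CPM in darkness and 21.9, 22.6 and 20.6 CPM in light. In Δ21168 the values were 4.54, 5.29 and 3.95 CPM in darkness and 5.62, 5.23 and 5.31 CPM in light. The QM6a mean was 5.6-fold that of Δ21168 in darkness and 5.61-fold in light, and the Δ80186 mean was 4.88-fold and 4.03-fold that of Δ21168. On the log2(CPM + 1) scale Δ21168 differed from QM6a by −2.26 in darkness and −2.29 in light. The highest of the 6 values in each strain was 1.26 to 1.42 times the lowest, a narrower spread than the gap between Δ21168 and the other strains. The rule favours such rows, so this is a description. The reads behind it were 42 to 56 per Δ21168 library.

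TrB1794C and TrA0790W, also lower in Δ21168, were lower in Δ80186 too. TrB1794C held 465, 392 and 387 CPM in the dark QM6a libraries and 496, 462 and 468 CPM in the light ones. It held 187, 164 and 120 CPM in dark Δ21168 libraries and 160, 183 and 174 CPM in light ones. In Δ80186 it held 242, 249 and 234 CPM in darkness and 177, 175 and 187 CPM in light. Both mutants thus lay below every QM6a library, and in light their values overlapped. Its log2 difference from QM6a was −1.40 in darkness and −1.46 in light in Δ21168, against −0.77 and −1.40 in Δ80186. It met the rule only because the Δ80186 value in darkness stayed under the limit.

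TrA0790W stood at 335, 350 and 388 CPM in QM6a in darkness and at 437, 387 and 317 CPM in light. In Δ21168 it stood at 137, 131 and 116 CPM in darkness and at 155, 192 and 176 CPM in light. In Δ80186 it stood at 194, 184 and 176 CPM in darkness and at 234, 237 and 241 CPM in light. Within each light condition the order was QM6a, then Δ80186, then Δ21168, with no overlap of the libraries. Across both conditions the light libraries of Δ21168 and the dark libraries of Δ80186 overlapped. The log2 difference from QM6a was −1.48 in darkness and −1.12 in light in Δ21168, and −0.95 and −0.68 in Δ80186.

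**Figure D1:**
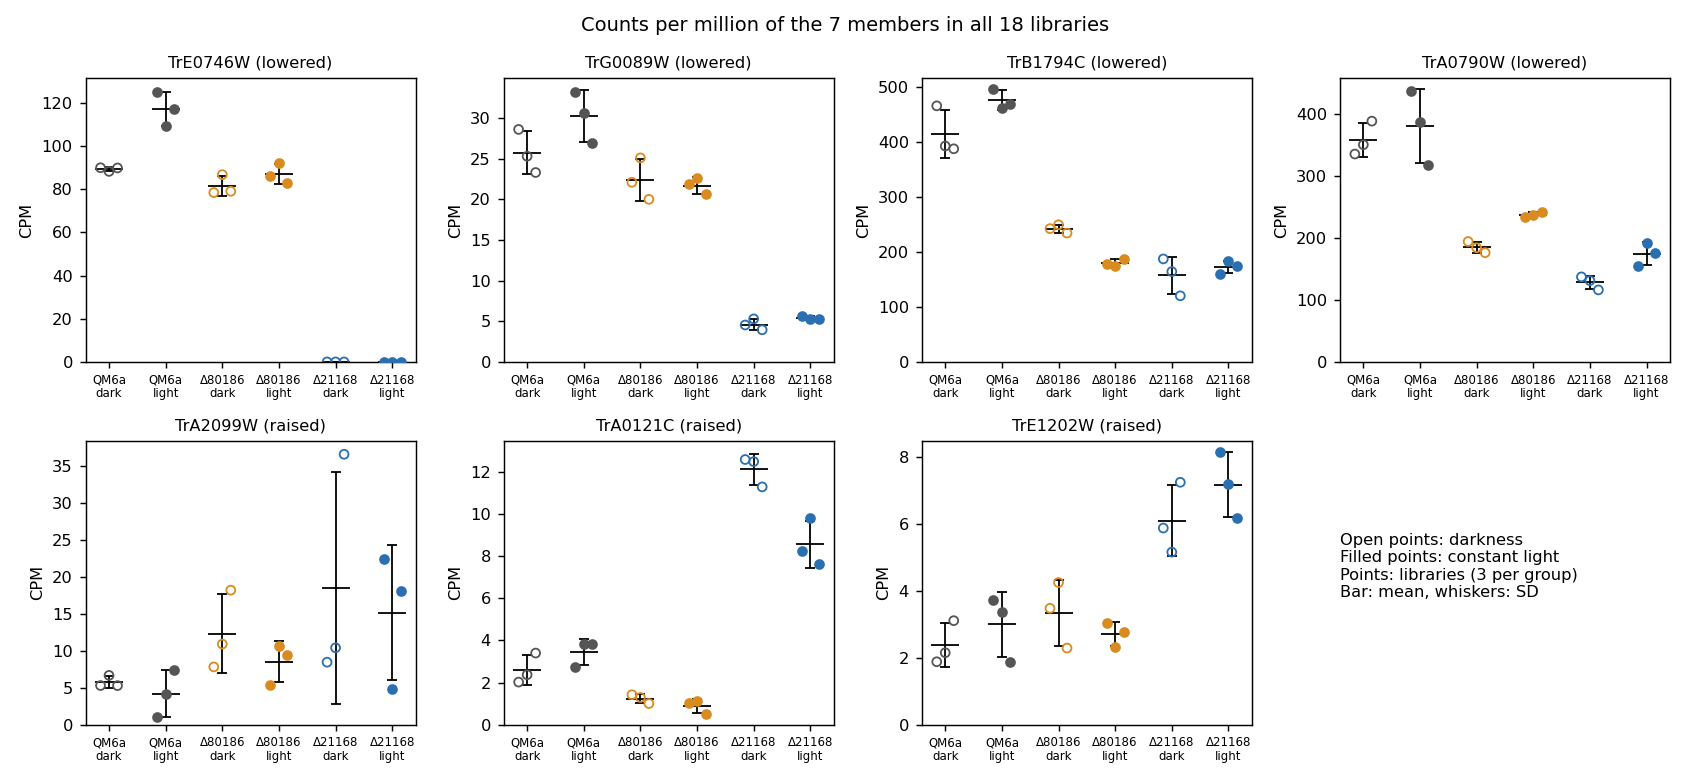
CPM of each member (vertical axis, from 0) in the 6 groups (horizontal axis), with 1 point per library, the mean as a bar and the SD as whiskers. TrE0746W and TrG0089W are low in Δ21168 only, TrB1794C and TrA0790W lie below QM6a in both mutants, and the libraries of TrA2099W spread widely.

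Among the higher members, TrA0121C moved in opposite directions in the mutants. It held 2.02, 2.37 and 3.40 CPM in dark QM6a libraries and 2.76, 3.83 and 3.82 CPM in light ones. In Δ21168 it held 12.6, 12.5 and 11.3 CPM in darkness and 8.26, 9.81 and 7.63 CPM in light. In Δ80186 it held 1.42, 1.29 and 1.0 CPM in darkness and 1.03, 1.12 and 0.503 CPM in light. All 6 Δ21168 libraries lay above, and all 6 Δ80186 libraries below, every other library. The Δ21168 mean was 4.67-fold that of QM6a in darkness and 2.47-fold in light, and 9.81-fold and 9.69-fold that of Δ80186. The counts were low, with 6 to 20 reads per Δ80186 library, 29 to 60 per QM6a library and 69 to 140 per Δ21168 library.

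TrE1202W was the member nearest the threshold on the higher side. Its QM6a values were 1.88, 2.15 and 3.11 CPM in darkness and 3.73, 3.38 and 1.88 CPM in light. In Δ80186 it held 3.48, 4.25 and 2.29 CPM in darkness and 3.03, 2.32 and 2.77 CPM in light. In Δ21168 it held 5.88, 5.16 and 7.25 CPM in darkness and 8.15, 7.20 and 6.19 CPM in light. The 6 Δ21168 libraries lay above the 12 others, whose values overlapped between QM6a and Δ80186. Its log2 difference from QM6a was 1.07 in darkness and 1.03 in light, from 41 to 90 reads per Δ21168 library and 26 to 53 per QM6a library.

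TrA2099W had the least even libraries of the members. In Δ21168 it held 8.45, 10.4 and 36.6 CPM in darkness and 22.4, 4.86 and 18.1 CPM in light. In QM6a it held 5.29, 6.66 and 5.28 CPM in darkness and 1.07, 4.15 and 7.36 CPM in light. In Δ80186 it held 7.81, 10.9 and 18.2 CPM in darkness and 5.39, 10.7 and 9.48 CPM in light. The Δ21168 libraries lay above those of QM6a in darkness, overlapped them in light, and overlapped those of Δ80186 in both conditions. The log2 difference from QM6a in darkness was 1.53, but 0.63 without Δ21168 dark replicate 3. In Δ80186 it was 0.98 in darkness and 0.87 in light, close under the limit of 1. Both values are lowered by the 1 added to CPM. The Δ80186 and QM6a means were 12.3 and 5.75 CPM in darkness and 8.51 and 4.19 CPM in light.

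The members were few against the rows that could have met the rule. Of the 10879 rows, 8009 reached 5 CPM in a group, and 3009 of these kept within the light limits in all 3 strains. In the 3009, Δ21168 differed from QM6a past the limit in both conditions in 11 rows, 0.366%. Of the 5000 rows outside the light limits, 299 did so, 5.98%. Light and strain limits both come from the same group means, so this contrast is a description of the choice. Over the 3009 rows the middle 95% of differences between Δ21168 and QM6a ran from −0.64 to 0.65 in darkness and from −0.57 to 0.57 in light, with medians of −0.01 and 0.03.

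**Figure D2:**
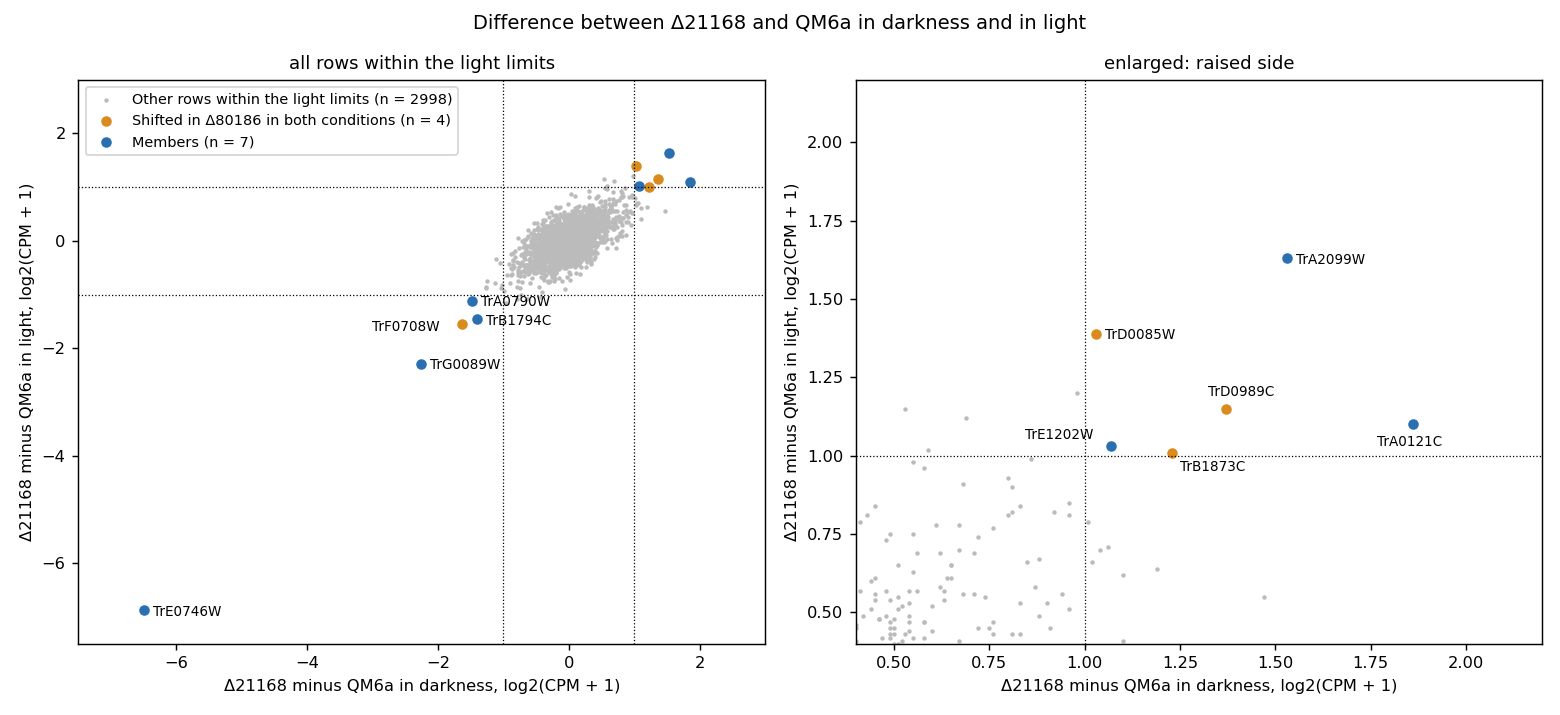
Difference between Δ21168 and QM6a in log2(CPM + 1), in darkness (horizontal axis) and in light (vertical axis), for the 3009 rows within the light limits. The right panel enlarges the higher side, and dotted lines mark the limits of −1 and 1. The 7 members and the 4 rows shifted in both mutants in both conditions lie past both limits, and TrE0746W at −6.50 and −6.88 stands far from all others. The legend names those 4 rows by Δ80186 alone. In all, 24 of the 3009 rows were past the limit in Δ80186 in both conditions.

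The other 4 of the 11 rows were left out because Δ80186 also passed the limit in both conditions. TrB1873C was higher in both mutants, with log2 differences from QM6a of 1.23 in darkness and 1.01 in light in Δ21168 and of 1.79 and 1.44 in Δ80186. TrF0708W was lower in both, by −1.63 and −1.55 in Δ21168 and by −1.80 and −1.73 in Δ80186. TrD0989C and TrD0085W were higher in Δ21168 and lower in Δ80186, as TrA0121C was. TrD0989C held 7.73, 58.4 and 79.6 CPM in the dark Δ21168 libraries, 11.0 to 23.6 CPM in the dark QM6a libraries and 5.30 to 6.43 CPM in those of Δ80186. Dark replicate 1 of Δ21168, the library with the lower rank correlations, thus lay below QM6a for this gene while the other two lay above.

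Just outside the limit on the higher side were TrG0625C, with differences of 0.98 in darkness and 1.20 in light, and TrD0182C, with 0.86 and 0.99. On the lower side they were TrA1366C, with −0.96 and −1.15, and TrB0640W, with −0.99 and −0.93. Just inside it were TrE1202W and TrA0121C on the higher side, with smaller differences of 1.03 and 1.10, and TrA0790W and TrB1794C on the lower side, with −1.12 and −1.40. TrG0625C stood at 7.54 to 8.20 CPM on average in the QM6a and Δ80186 groups and at 16.2 and 18.6 CPM in the Δ21168 groups. All 6 Δ21168 libraries (10.9 to 23.0 CPM) lay above the 12 others (6.58 to 8.72 CPM).

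The name of a shift only in Δ21168 held for a part of the members. TrA0121C was shifted in Δ80186 too, in the opposite direction, by −0.69 in darkness and −1.25 in light against QM6a. Like TrB1794C, it met the rule only because the Δ80186 value in darkness stayed under the limit. For TrA0121C that value was made smaller by the 1 added to CPM, as the dark means were 1.24 CPM in Δ80186 and 2.6 CPM in QM6a. The difference between Δ21168 and Δ80186 reached 1 (log2) in both conditions for 3 of 7 members, TrE0746W, TrG0089W and TrA0121C, and for 40 of the 3009 rows within the light limits (1.33%). For TrE1202W it was 0.71 in darkness and 1.14 in light. For TrB1794C it was −0.62 and −0.06, for TrA0790W −0.53 and −0.44, and for TrA2099W 0.55 and 0.76. All 6 Δ21168 libraries lay outside the range of the 12 others for 4 of 7 members (TrE0746W, TrG0089W, TrA0121C and TrE1202W), as they did for 4.92% of the 3009 rows within the light limits. They lay outside the range of the 6 QM6a libraries for 6 of 7, against 11.1% of those rows, and outside that of the 6 Δ80186 libraries for 4 of 7, against 17.0%. All 3 counts use the Δ21168 libraries that chose the members, and nothing is read from them. TrB1794C, TrA0790W and TrA2099W were under 1 from Δ80186 in both conditions, and TrE1202W was so in darkness. These members, and TrA0121C, which moved in both mutants, are better called by their rule than by a change particular to Δ21168.

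**Figure D3:**
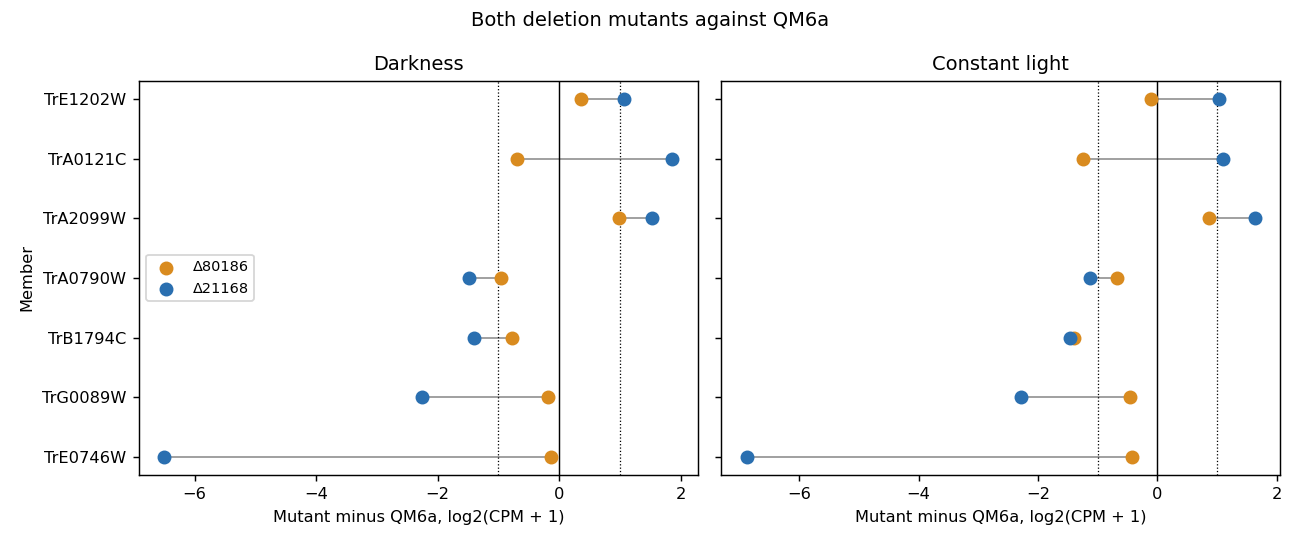
Difference of each mutant from QM6a in log2(CPM + 1) (horizontal axis) for each member (vertical axis), in darkness and in light, with dotted lines at −1 and 1. Δ80186 follows Δ21168 in direction for TrB1794C, TrA0790W and TrA2099W, opposes it for TrA0121C, and lies at −0.46 to −0.13 for TrE0746W and TrG0089W.

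Across all genes the counts were fitted with edgeR's quasi-likelihood test, and a gene was called at a Benjamini-Hochberg adjusted p under 0.05 over the 9079 genes tested, which included all 7 members. Against QM6a, Δ21168 was called for 6 of 7 members in darkness, where 47.2% of all genes were called, and for 6 of 7 in light, where 40.0% were. The exception was TrA2099W in both. These contrasts chose the members, and nothing is read from the counts. The median log2 fold change over all genes was 0.01 in darkness and 0.02 in light. For the members the medians of the log2(CPM + 1) differences were 1.53 and 1.10 for the 3 higher and −1.87 and −1.87 for the 4 lower ones. The dark median of the higher members was 0.95 without Δ21168 dark replicate 3.

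Δ80186 was called against QM6a for 3 of 7 members in darkness (34.7% of all genes) and for 5 of 7 in light (58.7%). TrB1794C, TrA0790W and TrA0121C were called in both conditions, and TrE0746W and TrG0089W in light alone, at fitted differences of −0.39 ± 0.08 (SE) and −0.44 ± 0.12. For TrA0121C the fitted differences were −1.07 ± 0.27 in darkness and −1.92 ± 0.28 in light. TrA2099W was not called, at 1.10 ± 0.69 in darkness and 1.03 ± 0.73 in light. With only the groups compared, TrA2099W was called in darkness. Between the mutants, Δ21168 differed from Δ80186 for 6 of 7 members in darkness (44.2% of all genes) and for 5 of 7 in light (62.6%). In darkness the call of TrE1202W was lost without Δ80186 dark replicate 3 or Δ21168 dark replicate 3. In light TrB1794C was called as well with only the groups compared, and without Δ21168 dark replicate 1 or 3. These shares are bound to the choice through the shared Δ21168 libraries.

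Light against darkness was called for few members, as the limits on light required. TrE0746W met the limit in Δ21168 with 0 reads in both conditions, so its light response there could not be read. In QM6a it was called for 1 of 7, TrE0746W, with 0.40 ± 0.08 (SE), where 61.1% of all genes were called. In Δ80186 it was called for TrB1794C (−0.38 ± 0.11) and TrA0790W (0.42 ± 0.10), where 53.3% of all genes were called. In Δ21168 it was called for TrA0121C (−0.57 ± 0.22) and TrA0790W (0.38 ± 0.11), against 60.2% of all genes. The call of TrA0121C was lost with library totals in place of scaling factors, and without Δ21168 dark replicate 1 or 2 or light replicate 1 or 3. That of TrA0790W was lost without Δ21168 light replicate 2. The difference of the light response from that in QM6a was called for 1 member in Δ21168, TrA0121C (30.6% of all genes), and for 1 in Δ80186, TrB1794C (41.8%).

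Membership was steadier on the lower side. Under 28 other settings, of which 18 left out 1 library each, TrE0746W and TrG0089W met the rule in 28, TrB1794C and TrA0790W in 27, TrA0121C in 21, TrE1202W in 19 and TrA2099W in 17. TrB1794C was lost when Δ80186 had to stay under the limit in both conditions, and TrA0790W without Δ21168 light replicate 1. Altogether 31 other identifiers met the rule under at least 1 of these settings, and under 2 of the 28 the members were the same 7.

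**Figure D4:**
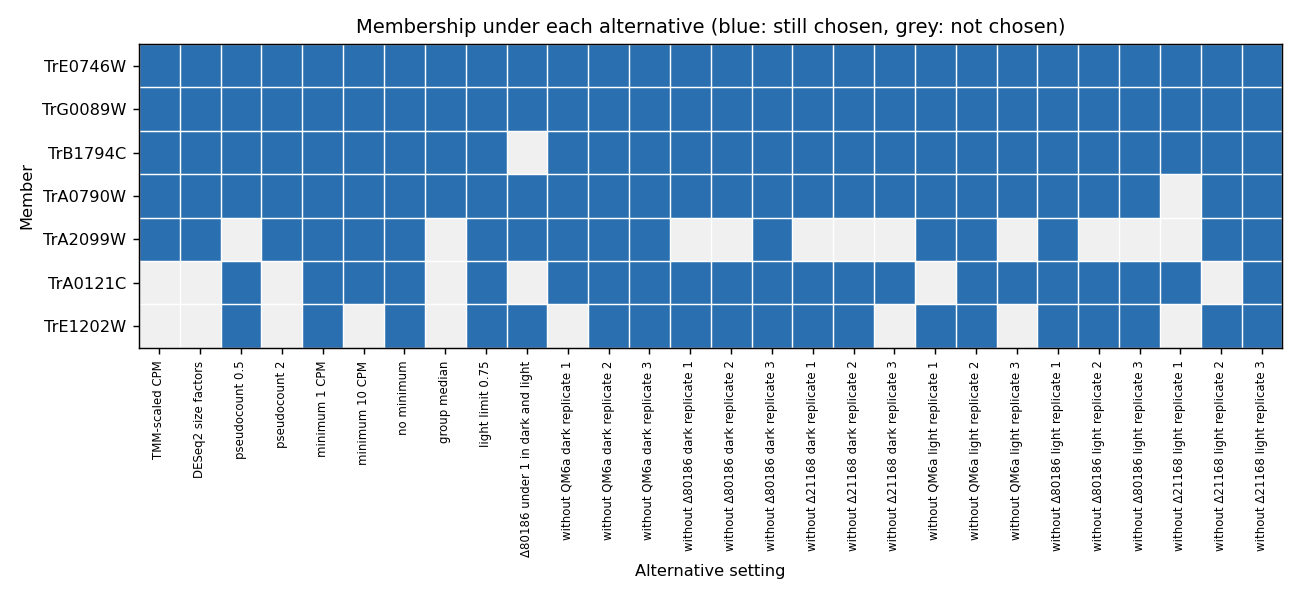
Membership of the 7 genes (vertical axis) under the 28 alternative settings (horizontal axis), with blue cells where the gene was still chosen. TrE0746W and TrG0089W were chosen under all 28, while the 3 higher members were chosen under 17 to 21.

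The rule was then applied to the libraries without 1 replicate number and the result read in the libraries left out, which the choice had not used. Those left out shared strain and library series with the ones used, and perhaps a culture. The deletion and a library batch cannot be told apart here either, and the counts are a description. Of 9 lower identifiers chosen without replicate 1, 5 were past the limit in replicate 1 in both conditions. The same held for 5 of 6 in replicate 2 and for 3 of 6 in replicate 3. Among the higher ones it held for 1 of 3, 0 of 5 and 0 of 2. All of the chosen identifiers kept their direction in both conditions in the libraries left out, but many did not keep within the light limits there. In replicates 1, 2 and 3, a light difference under 0.5 in every strain was seen for 4 of 9, 2 of 6 and 2 of 6 lower identifiers and for 0 of 3, 2 of 5 and 1 of 2 higher ones. The whole rule was met in the libraries left out by 3 of 9, 2 of 6 and 2 of 6 lower identifiers and by 0 of 3, 0 of 5 and 0 of 2 higher ones. TrE0746W, TrG0089W and TrB1794C were chosen all 3 times and were past the limit each time. For TrG0089W the differences read in the libraries left out were −2.42, −2.06 and −2.30 in darkness and −2.37, −2.34 and −2.15 in light. TrA2099W was chosen in none of the 3.

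Position in the order of identifiers was not used by the rule. No member was next to another, with 0 such pairs also when 1 identifier was allowed between them. The 7 members were 0.0643% of the 10879 rows, so nothing is read from this count. Of the members, 3 carry the letter A, 2 the letter E, 1 the letter B and 1 the letter G. The files do not state what letters, numbers and endings stand for, and the order is taken from the identifiers alone. The 14 identifiers directly before and after the members were read in the same fit, and 9 of them passed its filter on low counts. Of these 9, Δ21168 differed from QM6a in 4 in darkness and in 4 in light, 3 of each in the direction of the member. Those shares are near the 47.2% and 40.0% of all genes.

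Both identifiers beside TrE0746W were well read in Δ21168. TrE0745C stood at 19.5 ± 0.815 CPM (SD, n = 3) in QM6a and 21.2 ± 2.51 CPM in Δ21168 in darkness, and at 40.8 ± 1.12 and 49.0 ± 5.86 CPM in light. In the edgeR fit its log2 fold change was 0.12 ± 0.10 (SE, adjusted p = 0.38) in darkness and 0.18 ± 0.10 (adjusted p = 0.16) in light. TrE0747C differed by 0.28 ± 0.11 (edgeR, adjusted p = 0.034) in darkness and by 0.00 ± 0.10 (adjusted p = 0.99) in light. Neither neighbour was lower in Δ21168, and the loss of reads was limited to TrE0746W among these 3 identifiers.

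Next to TrG0089W, both flanking identifiers were near 0, with group means of at most 0.215 CPM for TrG0088C and 0.546 CPM for TrG0090C. The identifier before TrE1202W took the same course as the member. TrE1201C held 9.40 to 13.1 CPM in dark and 8.18 to 12.6 CPM in light QM6a libraries, and 16.9 to 21.4 and 17.7 to 23.2 CPM in those of Δ21168. Its edgeR log2 fold change was 0.86 ± 0.16 (SE, adjusted p = 0.00033) in darkness and 0.90 ± 0.16 (adjusted p = 0.00033) in light, higher in 6 of 6 libraries. In Δ80186 it was 0.24 ± 0.16 (edgeR, adjusted p = 0.29) and 0.23 ± 0.17 (adjusted p = 0.25).

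TrA2098C, before TrA2099W, varied with the member from library to library. It ranged from 5.69 CPM in QM6a light replicate 1, where TrA2099W was lowest too, to 155 CPM in Δ21168 dark replicate 3, where TrA2099W was highest. The ratio of their reads stayed between 3.25 and 9.10 over the 18 libraries, while TrA2099W itself ranged from 1.07 to 36.6 CPM. In Δ21168 against QM6a the edgeR log2 fold change of TrA2098C was 1.47 ± 0.58 (SE, adjusted p = 0.053) in darkness and 1.71 ± 0.60 (adjusted p = 0.037) in light. The names of both pairs end in C and W. The strand setting of the counting is not known here, so overlapping or antisense partners cannot be told apart by their reads. Whether these neighbours overlap the members was not tested.

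**Figure D5:**
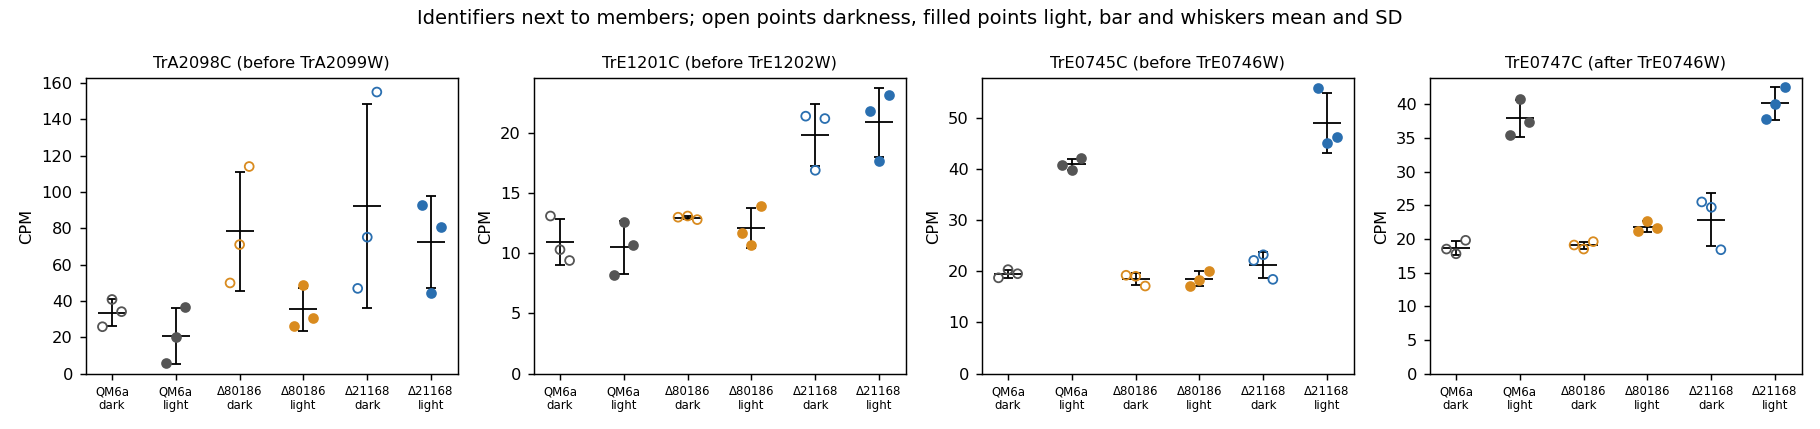
CPM (vertical axis, from 0) of 4 identifiers next to members in the 6 groups, with 1 point per library and the mean and SD. TrE1201C is higher in the 6 Δ21168 libraries than in the 12 others, TrA2098C spreads widely, and the identifiers beside TrE0746W are not lower in Δ21168.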

How the data were processed

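The deposited file was 1 table of whole-number counts per gene identifier for 18 libraries of T. reesei mycelium (rRNA-depleted, stranded kit, per the labels' protocols). The authors' counts were not normalised. The aligner was HISAT2 2.2.1, per the submitters' processing notes. Not given in the sources used here were the build, the strand setting and the treatment of multiple alignments. Columns were matched by the sample descriptions, and 0 columns were left out.

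CPM was the count divided by the column total. Group means, differences of log2(CPM + 1) and the choice of members followed from it, with no further scaling. Counts were tested in R 4.3.3 with edgeR 4.0.16, using filterByExpr (minimum count 10, minimum total 15; 9079 genes kept, 1800 removed), TMM factors and 1 robust quasi-likelihood fit of all 6 groups, without a replicate block. Each SE was derived from the fold change and its F statistic. DESeq2 1.42.0 was an alternative. Scripts were tested on simulated data. Chi-square tests found no replicate pair within sampling noise (at least 4.37 per degree of freedom).

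The members, lists and tests were chosen with earlier results of these data known. With 7 members, all were named. Other identifiers named were those just outside the limit, those beside members and, chosen after their values were seen, the 4 rows shifted in both mutants. Precision rests on 3 libraries per group and, for TrA0121C, on 6 to 140 reads per library.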

Additional observations from a re-analysis of the deposited data

Results flagged for a closer look

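The light response differed between strains for 2 members in the edgeR interaction test. The limits on light applied to log2(CPM + 1), where the light difference of TrA0121C was 0.31 in QM6a and −0.45 in Δ21168. The fitted values below are on the edgeR scale. TrA0121C had a log2 light response of 0.43 ± 0.24 (SE) in QM6a and −0.57 ± 0.22 in Δ21168, an interaction of −1.0 ± 0.33 (edgeR adjusted p = 0.028). All 3 dark Δ21168 libraries (11.3 to 12.6 CPM) lay above the 3 light ones (7.63 to 9.81 CPM). The interaction was not called without any 1 of 6 libraries: QM6a dark replicates 1 and 2, QM6a light replicates 2 and 3, and Δ21168 light replicates 1 and 3.

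TrB1794C had a light response of 0.21 ± 0.11 (SE) in QM6a and −0.38 ± 0.11 in Δ80186, an interaction of −0.59 ± 0.15 (edgeR adjusted p = 0.0048). All 3 light libraries of Δ80186 (175 to 187 CPM) lay below the 3 dark ones (234 to 249 CPM). The Δ21168 interaction was called for 30.6% and the Δ80186 interaction for 41.8% of all genes, and each for 1 of 7 members.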

How the results depend on the processing

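The number of higher members (3) was 1 with TMM-scaled CPM, 1 with a pseudocount of 2, 9 with a minimum of 1 CPM, 9 with none and 9 with a light limit of 0.75, and 1 to 4 when a library was left out. It was 1 without QM6a light replicate 3 and 1 without Δ21168 light replicate 1. With group medians it was 2, and TrA2099W, TrA0121C and TrE1202W were all lost. With DESeq2 size factors it stayed at 3, but TrA0121C and TrE1202W were lost and TrA0049W and TrG0625C were gained. The number of lower members (4) was 17 with the light limit of 0.75 and 4 to 6 when a library was left out. No log2 difference of a member changed sign. Of 322 recomputed values 312 moved by less than 1 SD, and the 10 others were set by the pseudocount or scaling, apart from TrA2099W without Δ21168 dark replicate 3. Many of the 322 could not move, since leaving out a library of a group not in the difference changes nothing. The count is therefore no measure of stability. Relative to library totals, TMM and DESeq2 factors shifted all genes of Δ21168 in light by −0.09 and −0.06 (log2) against QM6a. The shifts were −0.12 and −0.14 against Δ80186 in light, and −0.07 and −0.13 against its own dark libraries. The light difference of TrE1202W from QM6a, 1.03 with library totals, was 0.96 with TMM and 0.98 with DESeq2 factors. DESeq2 also called TrA2099W, 7 of 7 members in each condition. The Δ21168 light response was called for 1 member with library totals, and the Δ80186 interaction for 2 with library totals and 2 with only the groups compared. When a library was left out, members called ranged from 6 to 7 for Δ21168 against QM6a in both conditions, 5 to 6 for Δ21168 against Δ80186 in both conditions, 1 to 2 for light in QM6a, 1 to 2 for light in Δ21168, 0 to 2 for the Δ21168 interaction and 1 to 2 for the Δ80186 interaction. Neighbours called in the member's direction numbered 2 to 4 in alternatives chosen after seeing the data. The cause of these changes was not tested.

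The titles share replicate numbers, but deviations of same-numbered libraries did not go together (r −0.26 to 0.45, median 0, over 0.1 in 8 of 45 pairs; 5 of 18 libraries were closest to their own number). With the replicate block, light in QM6a was called for 2 members, adding TrG0089W, and Δ21168 against QM6a in light for 7.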

Other observations

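The identifiers on both sides of TrE0746W were higher in light in QM6a and Δ21168, and their light response was smaller in Δ80186 than in QM6a. Such calls were common. Light against darkness was called for 61.1% of all genes in QM6a and 60.2% in Δ21168, and the interaction of Δ80186 with light for 41.8%. TrE0745C went from 19.5 ± 0.815 to 40.8 ± 1.12 CPM (SD, n = 3) in QM6a and from 21.2 ± 2.51 to 49.0 ± 5.86 CPM in Δ21168, but stood at 18.4 ± 1.15 and 18.5 ± 1.48 CPM in Δ80186. The interaction of Δ80186 with light was −1.02 ± 0.14 (SE, edgeR adjusted p = 2.2e-05), and that of Δ21168 was 0.06 ± 0.14 (adjusted p = 0.79). TrE0747C went from 18.7 ± 1.04 to 37.9 ± 2.69 CPM (SD, n = 3) in QM6a and from 22.9 ± 3.84 to 40.1 ± 2.39 CPM in Δ21168. In Δ80186 the dark libraries held 18.5 to 19.6 CPM and the light ones 21.2 to 22.7 CPM, without overlap (edgeR log2 fold change 0.25 ± 0.10, adjusted p = 0.054). For TrE0747C the interactions were −0.79 ± 0.15 (edgeR adjusted p = 0.00034) and −0.29 ± 0.15 (adjusted p = 0.15). TrE0746W, between them, stayed within the light limits, as the rule required, and held 0 reads in Δ21168. In QM6a it was called higher in light too (0.40 ± 0.08, SE, edgeR adjusted p = 0.00048). Its interaction of Δ80186 with light was −0.25 ± 0.11 (edgeR adjusted p = 0.08). That interaction was called with library totals and with only the groups compared. TrE0745C and TrE0747C were chosen by position, and the pattern was noticed after their values were seen.

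The same rule with the mutants exchanged gave 20 rows for Δ80186, of which 2 were higher and 18 lower, against the 3 and 4 of Δ21168. Each mutant was read against the same QM6a libraries.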
